A study of Homo sapiens with 8 samples.

Results

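The genes described here are 44 genes of the G2 phase and mitosis, measured by RNA sequencing in RD-ES cells with and without the oncogene USP6 and interferon alpha. They were chosen by name from the deposited table of read counts, which holds 22257 gene symbols. The choice was made with earlier results of these data known. Each gene was represented by its transcript row with the most reads. All 44 were found, and all 44 passed the filter on low counts that left 14601 genes for testing. Their reads summed over the 8 libraries ranged from 972 for SPC24 to 129050 for TOP2A, so counting error was small for most of them. PTTG1 and AURKA have near-identical copies elsewhere in the genome, and how reads shared between copies were counted is not given in the sources used here, so their values are uncertain.

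RD-ES is a cell line from a Ewing sarcoma, and USP6 is a ubiquitin-specific protease. All cells carried a stably introduced USP6 gene under a doxycycline-responsive promoter and were a pool, not 1 clone. The 4 groups of 2 libraries were untreated cells, cells given interferon alpha at 1000 U/mL for 24 h, cells given doxycycline, and cells given doxycycline for 24 h and then interferon alpha at the same dose and time, called the combined treatment below. The stated question was how USP6 and interferon, alone or together, change gene expression. No doxycycline-treated cells without the transgene were analysed here, so an effect of doxycycline and an effect of USP6 cannot be told apart. For cells on doxycycline alone the labels give no end point of the exposure, so its length may differ between doxycycline alone and the combined treatment. Nothing in the labels marks the 2 replicates of a group as separate cultures. The p-values therefore measure only the spread between these libraries, which may be technical.

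Library totals over the rows used ranged from 9304569 to 11984196 reads, and levels are given in CPM, read counts scaled to the library's total with edgeR's normalization factors. USP6 was at 9.32 ± 0.783 CPM (SD, n = 2) in untreated cells and 9.75 ± 0.816 CPM (SD, n = 2) with interferon. It reached 563.4 ± 7.42 CPM (SD, n = 2) with doxycycline and 393 ± 22.6 CPM (SD, n = 2) with both. Among markers of Ewing sarcoma, PRKCB (298 to 431 CPM), STEAP1 (109.9 to 158 CPM) and NKX2-2 (10.9 to 21.1 CPM) were present in every library. The counts of CD99 were low, at 2.22 to 3.06 CPM. How reads were counted is not given in the sources used here, so low counts need not mean low expression. NR0B1 was at 5.46 to 11.4 CPM. Summed over the 10 Ewing sarcoma markers listed, the level was 2270 to 2480 CPM in untreated cells, 2478 to 2798 CPM with interferon, 1986 to 2012 CPM with doxycycline and 2353 to 2387 CPM with both. CCND1 was the largest part of this sum, at 1022 to 1517 CPM, so its shifts need not hold for the other markers. Of 13 markers of leukocytes, epithelium, endothelium and fibroblasts, LUM was the highest at 10.8 to 25.3 CPM, and CD3E and PECAM1 did not exceed 0.101 CPM. The 3 fibroblast markers summed to 19.1 to 20.6 CPM in untreated cells and, without overlap, to 23.1 to 23.7 CPM with interferon, 24.0 to 27.7 CPM with doxycycline and 24.0 to 30.04 CPM with both. The 4 leukocyte markers summed to 2.86 to 3.42 CPM in untreated cells, 3.49 to 4.02 CPM with interferon, 2.59 to 2.64 CPM with doxycycline and 2.39 to 2.92 CPM with both. The 3 endothelial markers stayed at or under 1.61 CPM in sum, and the 3 epithelial markers overlapped between untreated cells and every treatment, at 4.88 to 7.17 CPM. The part of these shifts in the members' values was not tested.

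Cells make the transcripts of these genes mainly in the G2 phase and early mitosis. In resting cells the DREAM complex, in which the MuvB core is bound to E2F4 and a pocket protein, holds the genes down, and in cycling cells MuvB with B-MYB and then FOXM1 raises them. The MuvB subunit LIN54 binds the short CHR element near the start site, and the factor NF-Y binds neighbouring CCAAT boxes. The encoded proteins drive entry into mitosis, build the spindle, attach chromosomes to it, delay separation until all are attached, and divide the cell. Type I interferons are known to slow the proliferation of many tumour cell lines. In whole cultures a smaller share of cells in G2 or mitosis and less RNA per such cell cannot be told apart.

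The promoters are shown first because the 2 elements are common in these genes, though the letters searched were not found in all. Promoter letters were not used to choose the genes. The elements belong to the known control of such genes described above, so the choice is not independent of them. The lines below give the 150 bases before the start site of 4 members, 5′ to 3′ on the gene's strand, from RefSeq promoters of the build GRCh38.p14. CDC20 lies at chr1:43358831-43358980 on the plus strand, CCNB2 at chr15:59104996-59105145 on the plus strand, PLK1 at chr16:23678739-23678888 on the plus strand and SPC24 at chr19:11155783-11155932 on the minus strand. Capitals mark the CHR element (TTTGAA or TTCGAA on either strand) and the CCAAT box (CCAAT, or ATTGG where it lies on the other strand).
PLK1: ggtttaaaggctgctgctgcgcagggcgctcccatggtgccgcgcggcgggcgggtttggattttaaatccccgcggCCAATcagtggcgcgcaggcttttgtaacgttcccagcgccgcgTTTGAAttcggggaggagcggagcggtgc
CCNB2: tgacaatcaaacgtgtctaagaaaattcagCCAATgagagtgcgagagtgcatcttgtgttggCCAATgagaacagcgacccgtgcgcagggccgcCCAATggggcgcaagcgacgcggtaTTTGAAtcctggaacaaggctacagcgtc
CDC20: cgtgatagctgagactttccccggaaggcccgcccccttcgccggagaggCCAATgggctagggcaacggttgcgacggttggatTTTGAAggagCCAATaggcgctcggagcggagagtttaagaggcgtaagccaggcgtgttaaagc
SPC24: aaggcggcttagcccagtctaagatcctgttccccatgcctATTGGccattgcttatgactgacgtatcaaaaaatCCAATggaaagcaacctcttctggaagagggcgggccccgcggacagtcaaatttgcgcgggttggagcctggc
PLK1 shows the usual layout, with a CHR element starting 29 bases and a CCAAT box starting 73 bases before the start site. CCNB2 has its CHR element at the same distance, 29 bases, behind 3 CCAAT boxes in this stretch. In CDC20 the CHR element begins 65 bases before the start, between CCAAT boxes at 100 and 55 bases. SPC24 has CCAAT boxes at 109 and 74 bases and none of these letters of a CHR element, which says only that they are not in this window.

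Of the 44 members 38 had a promoter in the RefSeq table, with 48 windows that run from 250 bases before to 50 bases after a start site. AURKA, TTK, BIRC5, UBE2C, TPX2 and FOXM1 had no entry. A CHR element was present in 33 of the 48 windows (68.8%), compared with 16.4% of all 35116 windows of that length. A CCAAT box was present in 37 windows (77.1%) against 34.6% of all windows. Both stood in 28 windows (58.3%), whereas 6.38% of all windows held both. The matches gathered near the start site: the median CHR position was -28 and the median CCAAT position -79, and 25 of 46 CHR matches and 50 of 77 CCAAT matches began within the last 100 bases before the start. A TTCGAA, which reads the same on both strands, was counted once. Because windows of 1 gene can overlap, these matches lie at 44 distinct places for CHR and 72 for CCAAT. Of these places, 25 for CHR and 49 for CCAAT began within the last 100 bases before a start. Places lying only after a start are not in the 25 and 49, however close they are. With the shorter stretch from 150 bases before to 50 after the start, the shares were 62.5% for CHR, 70.8% for CCAAT and 52.1% for both, against 10.2%, 26.5% and 3.17% of all windows. Each match is a description of letters, not of bound factor.

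**Figure D1:**
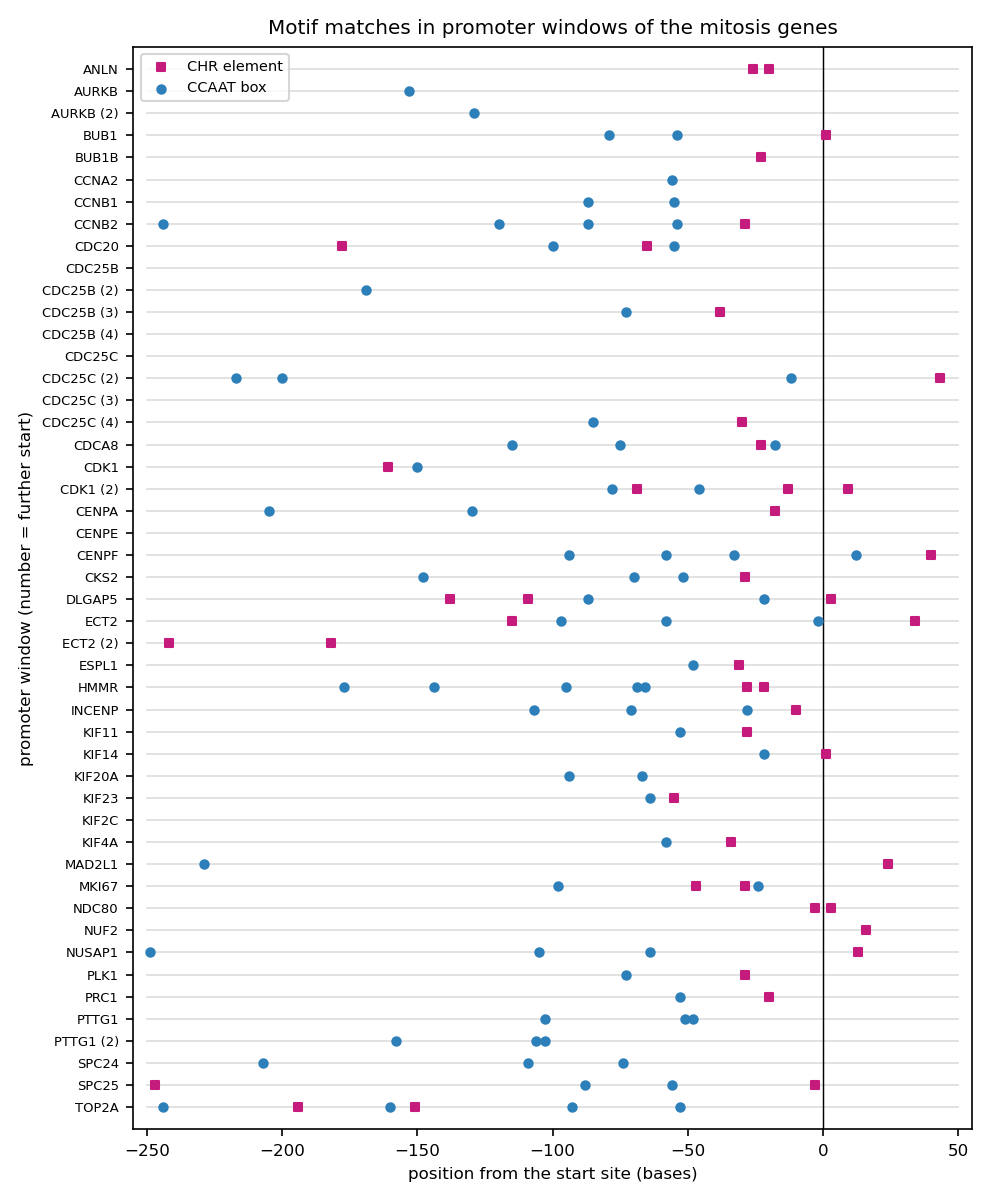
Positions of CHR elements (squares) and CCAAT boxes (circles) in the 48 promoter windows of 38 mitosis genes, in bases from the start site at 0; a number in brackets marks a further start site of the same gene. CHR matches lie closer to the start (median -28) than CCAAT matches (median -79).

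As a group the genes lay lower with interferon and higher with doxycycline, by small amounts. The log2 fold change is the fitted change of a group mean on the log2 scale, and a gene was called when its Benjamini-Hochberg adjusted p over all genes tested was under 0.05. With interferon alone all 44 members had a fold change below 0, compared with 51.9% of all genes, and their median was -0.22 against -0.01 for all genes. None was called by edgeR (0 of 44, where 2.12% of all genes were called), although 18 members had an unadjusted p under 0.05, against 11.6% of all genes. DESeq2 called 1 member, MAD2L1, and 2.55% of all genes; its shares, here and below, are of the 11171 to 14653 genes to which it gave an adjusted p, depending on the comparison. After a correction for GC content and transcript length, described below, edgeR called 17 members. Both interferon libraries lay below both untreated libraries in 28 members, against 22.7% of all genes.

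With doxycycline alone 36 of 44 members lay above 0, compared with 50.3% of all genes, with a median of 0.12 against 0.00 for all genes. No member was called by edgeR, which called 0.815% of all genes, or by DESeq2, which called 1.99%. CDC25C and ANLN had an unadjusted p under 0.05, 2 of 44 members where 13.6% of all genes had one. Both doxycycline libraries lay above both untreated libraries in 27 members, against 24.2% of all genes.

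With doxycycline present, the genes again lay lower with interferon. Between the combined treatment and doxycycline alone 42 of 44 members lay below 0 (53.7% of all genes), with a median of -0.24 against -0.02 for all genes. Without the GC and length correction, which gave 20 calls, none was called by edgeR (3.33% of all genes) or by DESeq2 (3.57% of all genes). Of the members 19 had an unadjusted p under 0.05 (15.5% of all genes), and in 30 the libraries did not overlap and were lower (21.4% of all genes). Between the combined treatment and interferon alone 36 of 44 members lay above 0 (48.7% of all genes), with a median of 0.11 against -0.01. None was called by edgeR (1.34% of all genes) or DESeq2 (1.96% of all genes), and 9 had an unadjusted p under 0.05 (14.9% of all genes). The libraries did not overlap in 17 that were higher (23.1% of all genes) and 2 that were lower (22.9% of all genes). After the GC and length correction this median was 0.08 against -0.02 for all genes, with 30 members above 0 (45.9% of all genes).

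Between the combined treatment and untreated cells the members' median was -0.06 against -0.02 for all genes, with 29 members below 0 (52.3% of all genes). Without replicate 1 of the combined treatment the median became -0.12, and without replicate 2 it became -0.01. After the correction for GC content and length it was -0.20 against -0.05 for all genes, with 40 members below 0 (57.3% of all genes) and 17 called lower (12.8% of all genes). Those 17 were AURKB, BIRC5, BUB1B, CCNA2, CDK1, CENPF, ECT2, FOXM1, INCENP, KIF11, KIF23, KIF4A, MAD2L1, MKI67, NUSAP1, SPC24 and SPC25. Without the correction SPC24 and FOXM1 fell, the 2 members called, both by edgeR and by DESeq2. In this comparison edgeR called 13.9% of all genes in either direction and 6.73% lower, and DESeq2 called 13.6%, so without the correction the share of members called was below that of all genes. An unadjusted p under 0.05 was found for 10 members against 30.1% of all genes. The libraries did not overlap in 17 members that were lower (28.0% of all genes) and 3 that were higher (28.1% of all genes). The test of the interaction, which asks whether the interferon response differed with doxycycline, called no member with edgeR (0.171% of all genes) or DESeq2 (0.376% of all genes). No member had an unadjusted p under 0.05, against 1.97% of all genes. Its median over the members was 0.01, with 24 above 0 (48.3% of all genes).

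**Figure D2:**
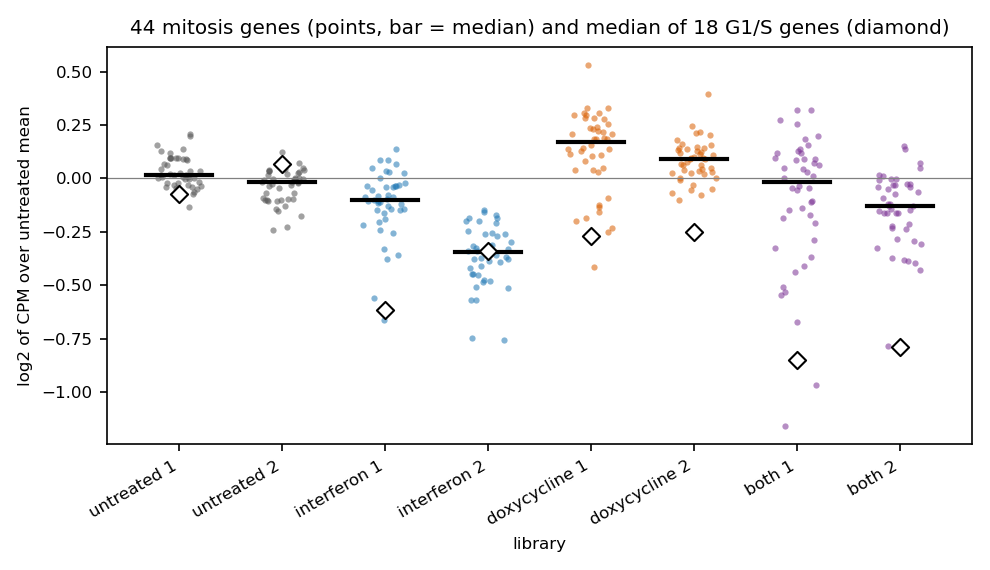
Level of each of the 44 mitosis genes in each library (points, log2 of CPM over the mean CPM of the untreated libraries), with their median as a bar and the median of 18 G1/S genes as a diamond. The mitosis genes are lowest in interferon replicate 2 and highest in the doxycycline libraries, whereas the G1/S genes are lowest in the 2 libraries of the combined treatment.

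The 2 interferon libraries stood apart from each other. Relative to the untreated mean, the members' median was -0.10 in interferon replicate 1 and -0.34 in replicate 2, and replicate 1 was the higher in 43 of 44 members, compared with 50.4% of all genes. Without replicate 1 the median interferon change became -0.34, and without replicate 2 it became -0.10. The median of the interaction moved from 0.01 to 0.15 without interferon replicate 1 and to -0.10 without replicate 2, and the median between the combined treatment and interferon alone moved from 0.11 to 0.25 without interferon replicate 1, to 0.03 without interferon replicate 2 and to 0.19 without replicate 2 of the combined treatment. The doxycycline libraries were at 0.17 and 0.09, and those of the combined treatment at -0.02 and -0.13. Summed over the members, the level was 10918 and 10734 CPM in untreated cells, 10166 and 8725 CPM with interferon, 12319 and 11454 CPM with doxycycline and 10922 and 10038 CPM with both. The range of the combined treatment crossed those of untreated and of interferon-treated cells, and the doxycycline libraries stood above all the others.

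**Figure D3:**
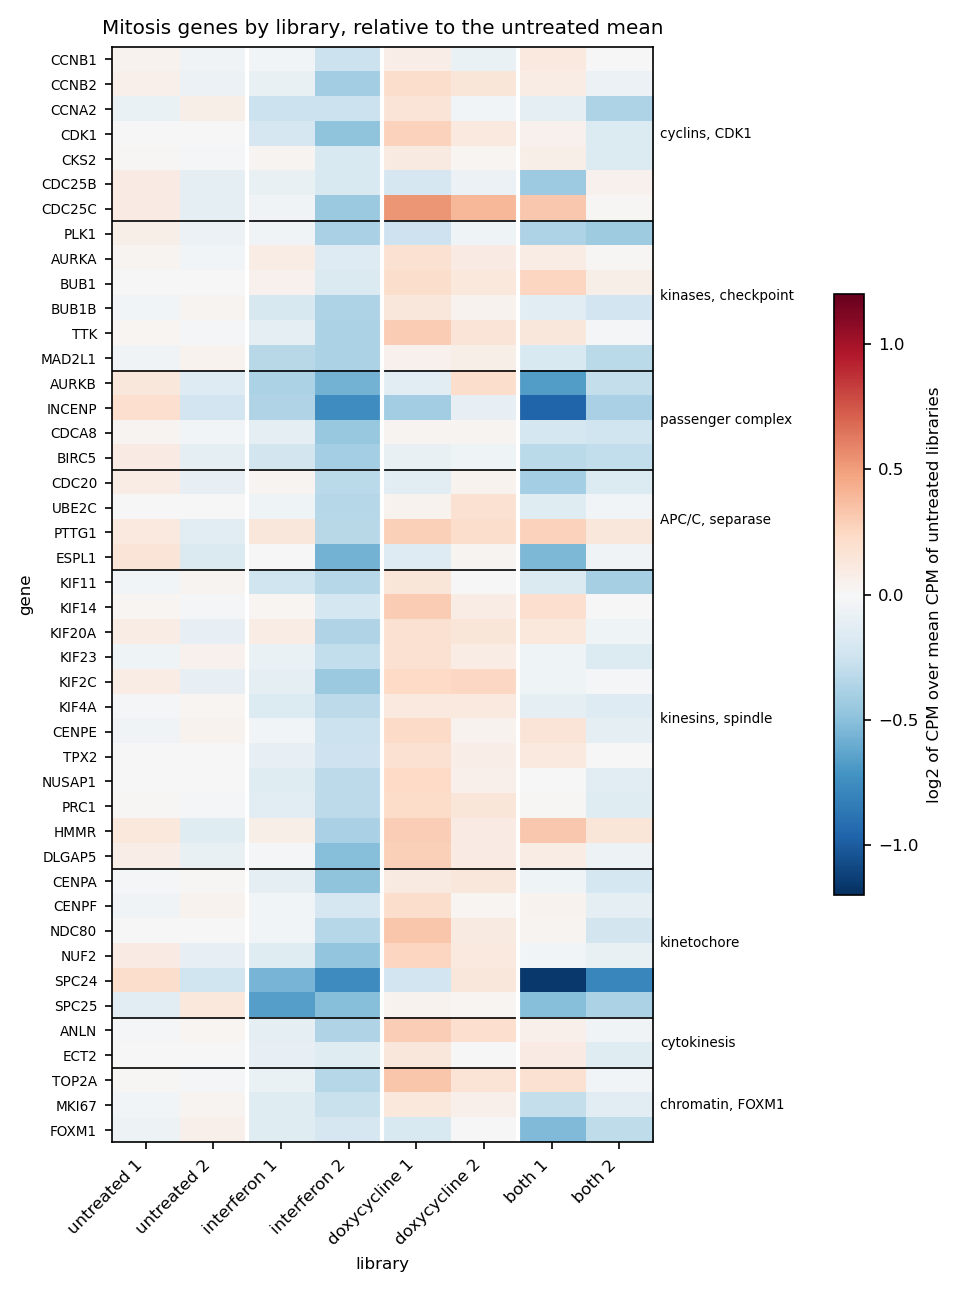
Each row is a gene and each column a library, coloured by the log2 of CPM over the mean CPM of the untreated libraries, with genes grouped by role. Interferon replicate 2 is below the untreated mean in all 44 genes, and SPC24, INCENP and AURKB reach the lowest values in the first library of the combined treatment.

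Cyclins and their partners switch CDK1, the kinase that starts mitosis. The 7 genes had a median interferon change of -0.23, between -0.34 for CDK1 and -0.08 for CKS2, which encodes a small subunit of the kinase. With doxycycline their median was 0.06. The phosphatase CDC25B (-0.13) and its relative CDC25C (0.47) stood at the ends of that range.

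CDK1 itself was at 281 and 279 CPM in the untreated libraries, 244 and 200.4 CPM with interferon, 339.8 and 305 CPM with doxycycline and 290.3 and 251 CPM with both. The untreated libraries lay above both interferon libraries and below both doxycycline libraries. The interferon change was -0.34 ± 0.11 (log2 ± SE, edgeR adjusted p = 0.238) and the doxycycline change 0.20 ± 0.11 (edgeR adjusted p = 0.453). With both treatments the level spanned the untreated one, at -0.05 ± 0.11. After the GC and length correction this change was -0.33 ± 0.07 (edgeR adjusted p = 0.00658), so CDK1 was called lower. The corrected doxycycline change was 0.06 ± 0.07 (edgeR adjusted p = 0.695).

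CCNB1 encodes cyclin B1, the main partner of CDK1 in mitosis. Its level was 396 and 373 CPM in untreated cells, 375 and 322 CPM with interferon, 407 and 365 CPM with doxycycline and 418 and 382 CPM with both. Only between interferon alone and the combined treatment did its libraries not overlap. Its interaction had the smallest unadjusted p among the members, at 0.19 ± 0.14 (edgeR adjusted p = 1). The interferon change was -0.14 ± 0.10 without and 0.05 ± 0.10 with doxycycline.

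CDC25C removes the inhibitory phosphates from CDK1. It was at 48.7 and 42.4 CPM in untreated cells, 44.4 and 33.4 CPM with interferon, 65.8 and 60.0 CPM with doxycycline and 56.9 and 45.9 CPM with both. Both doxycycline libraries stood above all the others. The doxycycline change of 0.47 ± 0.15 was the largest above 0 among the members (edgeR adjusted p = 0.234), and that within interferon-treated cells was 0.40 ± 0.16 (edgeR adjusted p = 0.267). After the GC and length correction these changes were 0.41 ± 0.12 and 0.35 ± 0.13. CCNB2 and CCNA2, which encode cyclins B2 and A2, had interferon changes of -0.24 and -0.26.

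Mitotic kinases and the spindle checkpoint form the next group of 6. Their median was -0.22 with interferon and 0.11 with doxycycline. BUB1, a checkpoint kinase, and AURKA, a kinase of the spindle poles, had interferon changes close to 0, at -0.06 and -0.03. BUB1B, whose product BubR1 is part of the checkpoint complex, was at -0.28.

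MAD2L1 encodes MAD2, the checkpoint protein that holds back CDC20 until chromosomes are attached. It was at 206 and 219 CPM in untreated cells, 169 and 164 CPM with interferon, 219.8 and 222 CPM with doxycycline and 187 and 169 CPM with both. The 4 libraries with interferon lay below the 4 without it. With the GC and length correction MAD2L1 was called without doxycycline, at -0.41 ± 0.06 (edgeR adjusted p = 0.00106). With doxycycline it was then called at -0.38 ± 0.06 (edgeR adjusted p = 0.00136). Without the correction the change was -0.35 ± 0.08 without doxycycline (edgeR adjusted p = 0.0626) and -0.31 ± 0.08 with it (edgeR adjusted p = 0.0798). DESeq2 called the first of these, and so did edgeR when either library of the combined treatment was left out, with a change of -0.35 in each case.

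TTK encodes MPS1, the kinase that recruits the checkpoint to unattached kinetochores. Its level was 208 and 201 CPM in untreated cells, 190.1 and 157 CPM with interferon, 253 and 228 CPM with doxycycline and 225 and 201 CPM with both. Interferon libraries were the lowest and doxycycline libraries the highest, without overlap. The doxycycline change was 0.23 ± 0.11 (edgeR adjusted p = 0.367), and it was 0.29 ± 0.11 in interferon-treated cells (edgeR adjusted p = 0.243). After the GC and length correction these changes were 0.13 ± 0.08 and 0.17 ± 0.08.

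PLK1, a kinase needed for centrosome maturation and mitotic exit, differed from most members in its direction with doxycycline. It was at 67.6 and 61.6 CPM in untreated cells, 62.8 and 49.4 CPM with interferon, 54.2 and 62.1 CPM with doxycycline and 49.99 and 48.0 CPM with both. Only the combined treatment was below untreated cells without overlap. That change was -0.40 ± 0.13 (edgeR adjusted p = 0.0676), and the doxycycline change was -0.15 ± 0.13.

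The chromosomal passenger complex corrects faulty attachments and has the kinase AURKB, the scaffold INCENP, borealin (CDCA8) and survivin (BIRC5). Its 4 genes had the lowest median of the role groups with interferon, -0.39, from -0.54 for INCENP to -0.27 for CDCA8. With doxycycline already present the median was -0.33. With doxycycline alone it was -0.02.

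BIRC5 was at 224 and 195 CPM in untreated cells, 180.2 and 158 CPM with interferon, 197 and 203 CPM with doxycycline and 167 and 171 CPM with both. All 4 libraries with interferon were below the 4 without it. The interferon change was -0.31 ± 0.10 (edgeR adjusted p = 0.197) and in doxycycline-treated cells -0.24 ± 0.10 (edgeR adjusted p = 0.266). Between the combined treatment and untreated cells AURKB (-0.47 ± 0.17) and INCENP (-0.65 ± 0.20) were not called. Both were called when the second library of the combined treatment was left out, at -0.67 and -0.96, and both with the GC and length correction, at -0.32 and -0.39. INCENP was also called with no low-count filter and when only the groups compared were fitted.

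Anaphase begins when the anaphase-promoting complex, with its activator CDC20 and its ubiquitin-conjugating enzyme UBE2C, marks securin (PTTG1) for destruction and frees separase (ESPL1). These 4 genes had interferon changes between -0.26 for ESPL1 and -0.08 for PTTG1. CDC20 was at -0.14 and UBE2C at -0.19. With doxycycline PTTG1 was at 0.25 and UBE2C at 0.11, while CDC20 and ESPL1 were at -0.04 and -0.06.

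Kinesins and spindle proteins were the largest group, 12 genes. All 12 lay below 0 with interferon (median -0.20) and all 12 above 0 with doxycycline (median 0.16). After the GC and length correction these medians were -0.26 and 0.08, and KIF11 lay below 0 with doxycycline, at -0.04. KIF2C, a kinesin that takes microtubules apart, had the largest doxycycline change of the group, 0.24, and KIF11 the smallest, 0.07. KIF14, KIF20A, KIF23 and PRC1, which act at the central spindle, had interferon changes from -0.22 for PRC1 to -0.09 for KIF14. The remaining changes were -0.25 for DLGAP5, which stabilises kinetochore fibres, -0.24 for the chromosome-bound kinesin KIF4A, -0.23 for the microtubule bundler NUSAP1 and -0.14 for the kinetochore motor CENPE.

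KIF11 encodes Eg5, the motor that pushes the spindle poles apart. It was at 274 and 288 CPM in untreated cells, 237 and 221 CPM with interferon, 310.0 and 279 CPM with doxycycline and 249 and 213 CPM with both. Every library with interferon was below every library without it. With the GC and length correction KIF11 was called with interferon, at -0.34 ± 0.06 (edgeR adjusted p = 0.00314). In doxycycline-treated cells it was then called at -0.42 ± 0.06 (edgeR adjusted p = 0.000401). Without the correction the interferon change was -0.29 ± 0.10 (edgeR adjusted p = 0.246) and in doxycycline-treated cells -0.35 ± 0.10 (edgeR adjusted p = 0.0955). The second was called without replicate 1 of the combined treatment, at -0.44.

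TPX2 activates AURKA and helps to nucleate spindle microtubules. Its level was 420.2 and 418 CPM in untreated cells, 392 and 353 CPM with interferon, 476 and 442 CPM with doxycycline and 455 and 419 CPM with both. Interferon libraries were below and doxycycline libraries above the untreated ones. In interferon-treated cells the doxycycline change was 0.23 ± 0.09 (edgeR adjusted p = 0.268), and 0.16 ± 0.06 after the GC and length correction.

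HMMR, which encodes a spindle-associated hyaluronan receptor, was one of 2 members not below 0 between the combined treatment and doxycycline alone; the other was CCNB1. It was at 158 and 131 CPM in untreated cells, 151 and 110.1 CPM with interferon, 177 and 154 CPM with doxycycline and 180.0 and 160.0 CPM with both. The libraries of the combined treatment lay above both untreated and both interferon libraries. The doxycycline change in interferon-treated cells was 0.38 ± 0.15 (edgeR adjusted p = 0.269), and the interaction was 0.18 ± 0.21 (edgeR adjusted p = 1). After the GC and length correction the doxycycline change in those cells was 0.23 ± 0.12.

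At the kinetochore the NDC80 complex, made of NDC80, NUF2, SPC24 and SPC25, ties chromosomes to microtubules. CENPA is the centromere's histone H3 variant and CENPF a large kinetochore protein. The 6 genes had a median interferon change of -0.30. The pair SPC24 and SPC25, which anchors the complex, stood lowest at -0.65 and -0.58, and the pair NDC80 and NUF2, which binds the microtubule, was at -0.18 and -0.30.

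SPC24 was the least abundant member per length of transcript, at 6.22 CPM per kb in untreated cells, where TOP2A reached 254.8 CPM per kb. It was at 16.6 and 12.2 CPM in untreated cells, 9.77 and 8.51 CPM with interferon, 12.3 and 15.8 CPM with doxycycline and 6.45 and 8.36 CPM with both. All libraries with interferon lay below all libraries without it. SPC24 fell with the combined treatment compared with untreated cells, with a log2 change of -0.96 ± 0.23 (edgeR adjusted p = 0.0196).

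That call was lost without untreated replicate 1 (-0.72, edgeR adjusted p = 0.136) and without replicate 1 of the combined treatment (-0.77, edgeR adjusted p = 0.173). Against doxycycline alone the combined treatment gave SPC24 a change of -0.92 ± 0.23 (edgeR adjusted p = 0.0534), which was called without untreated replicate 1, also at -0.92, with no low-count filter and with the GC and length correction. The interferon change was -0.65 ± 0.22 (edgeR adjusted p = 0.245).

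SPC25 was at 29.6 and 35.4 CPM in untreated cells, 20.5 and 22.9 CPM with interferon, 33.5 and 33.1 CPM with doxycycline and 22.9 and 24.98 CPM with both. Again the 4 libraries with interferon lay below the 4 without it. Its interferon change, -0.58 ± 0.14, had the smallest p among the members (edgeR adjusted p = 0.0607). The combined treatment differed from untreated cells by -0.44 ± 0.14 (edgeR adjusted p = 0.0549).

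Of the cytokinesis genes ANLN encodes anillin, the scaffold of the contractile ring, and ECT2 the exchange factor that switches on RhoA there. ANLN was at 304 and 314 CPM in untreated cells, 285 and 241 CPM with interferon, 379 and 356 CPM with doxycycline and 322 and 300.5 CPM with both. Interferon libraries were lower and doxycycline libraries higher than the untreated ones, and the combined treatment spanned them. The doxycycline change was 0.25 ± 0.10 (edgeR adjusted p = 0.296) and the interferon change -0.23 ± 0.10 (edgeR adjusted p = 0.38). After the GC and length correction the doxycycline change of ANLN was 0.15 ± 0.07. ECT2 had an interferon change of -0.13 and a doxycycline change of 0.07.

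TOP2A untangles and compacts chromosomes, MKI67 coats them as the proliferation antigen Ki-67, and FOXM1 is the factor that raises many of the other members. TOP2A was at 1483 and 1451 CPM in untreated cells, 1391 and 1158 CPM with interferon, 1845 and 1641 CPM with doxycycline and 1666 and 1435 CPM with both. Its changes were -0.20 ± 0.12 with interferon (edgeR adjusted p = 0.554) and 0.25 ± 0.12 with doxycycline (edgeR adjusted p = 0.379), without overlap with untreated cells in either. After the GC and length correction they were -0.26 ± 0.08 and 0.14 ± 0.08.

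MKI67 was at 348 and 364 CPM in untreated cells, 321 and 295 CPM with interferon, 388 and 372 CPM with doxycycline and 291 and 325 CPM with both. The libraries with interferon lay below those without it. The change was -0.21 ± 0.09 without doxycycline (edgeR adjusted p = 0.399) and -0.30 ± 0.09 with it (edgeR adjusted p = 0.109).

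FOXM1 was at 152 and 166 CPM in untreated cells, 144 and 139 CPM with interferon, 139.8 and 159.5 CPM with doxycycline and 110.2 and 129 CPM with both. The combined treatment held the lowest 2 libraries of the 8. FOXM1 fell between untreated cells and the combined treatment, with a log2 change of -0.41 ± 0.10 (edgeR adjusted p = 0.0258). Its single-treatment changes were -0.17 ± 0.10 with interferon (edgeR adjusted p = 0.58) and -0.09 ± 0.10 with doxycycline (edgeR adjusted p = 0.739).

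The call of FOXM1 was lost in 5 of the 8 fits that left out 1 library. Without untreated replicate 1 or 2 the change was -0.48 or -0.35 (edgeR adjusted p = 0.0531 or 0.134), and without replicate 1 of the combined treatment it was -0.30 (edgeR adjusted p = 0.201). Without interferon replicate 1 or 2 the change was -0.41 in both fits (edgeR adjusted p = 0.0571 or 0.0577).

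Each treatment was measured in 2 settings, and members with a large change in one tended to have a large change in the other. Across the 44 genes the interferon change without doxycycline and that with doxycycline had a Pearson correlation of 0.85 and a Spearman correlation of 0.77, and the doxycycline change without and with interferon had 0.83 and 0.85. Each pair of comparisons shares no library. The same correlations over all genes are not given here, so whether they are particular to these genes was not tested. The genes are not independent samples and share base composition, and after correction for GC content and length the Spearman correlations were 0.8 and 0.75.

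**Figure D4:**
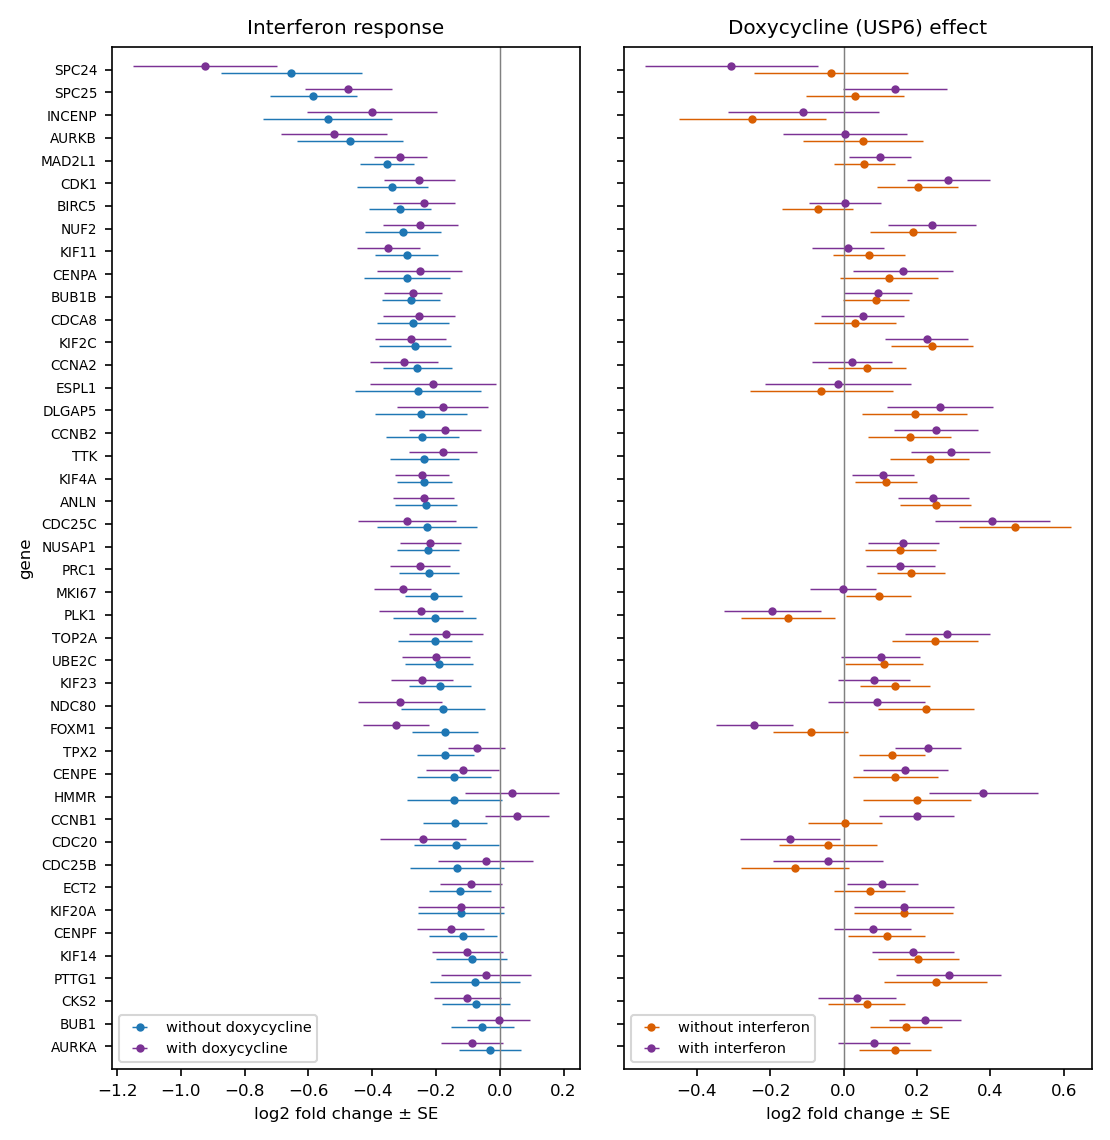
Log2 fold changes with their standard errors for the 44 mitosis genes, with interferon on the left (without doxycycline in blue, with it in purple) and with doxycycline on the right (without interferon in orange, with it in purple). Interferon changes lie left of 0 apart from those of CCNB1 and HMMR with doxycycline, with SPC24 and SPC25 at the far end, and most doxycycline changes lie right of 0.

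Base composition moved with the doxycycline values. The transcripts' GC content ran from 35.3% for CENPE to 59.6% for INCENP, and its Spearman correlation with the doxycycline change over the 44 members was -0.55, compared with -0.41 over all genes. For the doxycycline change in interferon-treated cells it was -0.59 (-0.45 over all genes), and for the interferon change it was -0.11 (-0.28 over all genes). The trend of level with GC content over all genes differed between libraries in every group. Its correlation was 0.58 and 0.12 in the untreated libraries, 0.31 and 0.03 with interferon, -0.48 and 0.35 with doxycycline and -0.64 and 0.05 with both. The 8 members below 0 with doxycycline were INCENP, CDC25B, PLK1, CDC20, ESPL1, FOXM1, SPC24 and BIRC5, with GC contents from 59.6% down to 52.2%. AURKB, at 56.6% GC, lay within that range and was at 0.05 with doxycycline, and every other member was poorer in GC.

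When the dependence of each library's levels on GC content and length of the transcript was removed, the median doxycycline change went from 0.12 to 0.05, and 30 of 44 members were above 0 (45.5% of all genes). No member was called by edgeR (3.75% of all genes), 2 had an unadjusted p under 0.05 (19.6% of all genes), and the correlation with GC content was -0.12. The same correction left the interferon change at a median of -0.28, with all 44 members below 0 (55.3% of all genes). It gave 17 called members, all lower, where 3.71% of all genes were called lower. They were ANLN, AURKB, BIRC5, BUB1B, CCNA2, CDK1, INCENP, KIF11, KIF4A, MAD2L1, MKI67, NUF2, NUSAP1, PRC1, SPC24, SPC25 and TPX2.

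With this correction the interferon change was -0.66 ± 0.12 for SPC25 (edgeR adjusted p = 0.00352), -0.43 ± 0.08 for CDK1 (edgeR adjusted p = 0.00295) and -0.41 ± 0.06 for MAD2L1 (edgeR adjusted p = 0.00106). The standard errors were smaller than without it, 0.08 in place of 0.11 for CDK1. Between the combined treatment and doxycycline alone it gave 20 called members, all lower (4.97% of all genes called lower). Those 20 were ANLN, AURKB, BIRC5, BUB1B, CCNA2, CDK1, FOXM1, INCENP, KIF11, KIF23, KIF2C, KIF4A, MAD2L1, MKI67, NDC80, NUF2, NUSAP1, PRC1, SPC24 and SPC25. No member was called by edgeR for doxycycline in interferon-treated cells (4.07% of all genes), where 4 had an unadjusted p under 0.05 (19.2% of all genes), or for the interaction (0.342% of all genes), where 0 had one (4.47% of all genes).

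**Figure D5:**
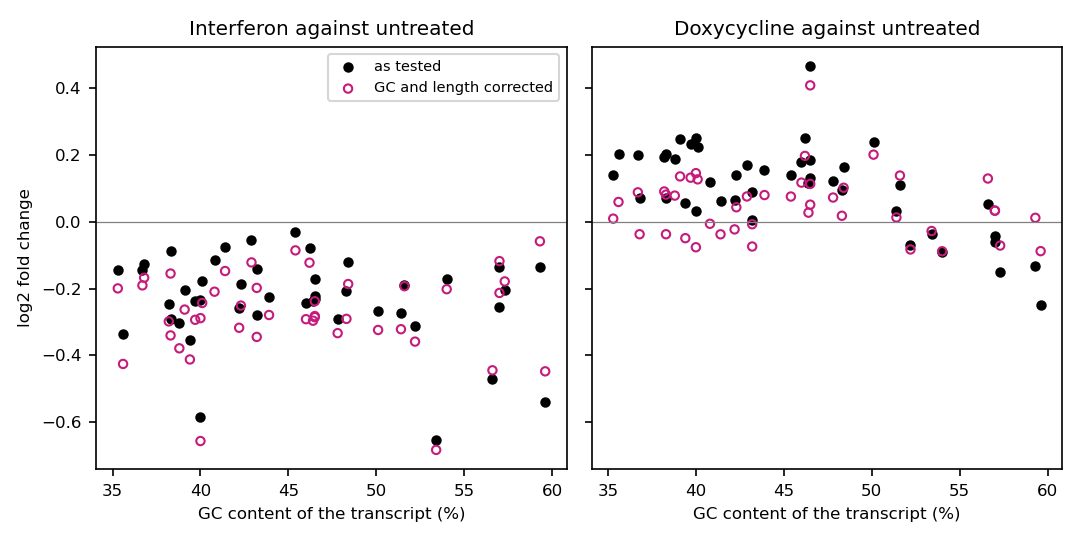
Log2 fold change of each mitosis gene against the GC content of its transcript in percent, for interferon (left) and doxycycline (right), as tested (filled) and after correction for GC content and length (open). The doxycycline changes slope down with GC content before correction (Spearman -0.55) and little after it (-0.12), while the interferon changes are below 0 throughout.

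Members with and without the searched CHR letters, TTTGAA or TTCGAA, had close medians. Other forms of the element were not searched, so a member without these letters is not shown to lack it. Among members with a promoter window the median interferon change was -0.23 in the 30 with the letters and -0.20 in the 8 without. The median doxycycline change was 0.12 and 0.10. Among tested genes that are not members, 634 had both elements in a window, and their median was -0.01 with interferon and 0.04 with doxycycline. These medians describe the groups, and no test of them was made.

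Other genes of mitosis were listed beside the members, also with earlier results of these data known. Of 45 further spindle and kinetochore genes tested, 44 lay below 0 with interferon (51.9% of all genes), with a median of -0.26. Without the GC and length correction edgeR called 1 lower (0.5% of all genes), HJURP, the chaperone that loads CENPA (-0.46 ± 0.09, edgeR adjusted p = 0.0193). DESeq2 called 3 (2.55% of all genes), and edgeR with the correction called 26 lower (3.71% of all genes). Against doxycycline alone the combined treatment put all 45 below 0, and ZWINT, a kinetochore protein, fell (-0.47 ± 0.11, edgeR adjusted p = 0.0365). It was the 1 gene called without the correction (0.904% of all genes called lower), and 16 were called lower with it (4.97% of all genes). Between the combined treatment and untreated cells 5 of the 45 were called lower (6.73% of all genes), and 23 with the correction (12.8% of all genes). Without the correction ZWINT (-0.68 ± 0.11, edgeR adjusted p = 0.00211) and TACC3, a spindle protein (-0.77 ± 0.17, edgeR adjusted p = 0.0137), had the smallest p.

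The 8 condensin genes, whose products compact mitotic chromosomes, were all below 0 with interferon, with a median of -0.28. Without the GC and length correction none of the 8 was called by edgeR or DESeq2, and 5 had an unadjusted p under 0.05 (11.6% of all genes). With it edgeR called 6 of the 8 lower (3.71% of all genes). In doxycycline-treated cells 2 of the condensin genes fell with interferon (0.904% of all genes called lower). They were NCAPG2 (-0.33 ± 0.08, edgeR adjusted p = 0.0431) and NCAPD3 (-0.32 ± 0.08, edgeR adjusted p = 0.0454). With the correction 7 were called lower there (4.97% of all genes). In contrast, 7 of the 16 tested subunits and partners of the anaphase-promoting complex lay below 0 with interferon, with a median of 0.02. With the combined treatment 3 of the 16 were called lower than in untreated cells (6.73% of all genes), among them ANAPC11 (-1.06 ± 0.21, edgeR adjusted p = 0.00873). With the correction 6 were called lower (12.8% of all genes).

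Among 15 DREAM and MuvB genes the medians were -0.15 with interferon and -0.03 with doxycycline. In these 2 comparisons neither edgeR without the GC and length correction nor DESeq2 called a gene. An unadjusted p under 0.05 was found for 3 and 1 genes (11.6% and 13.6% of all genes). With the correction edgeR called 4 lower with interferon (3.71% of all genes) and 0 with doxycycline (3.75% of all genes in either direction). Between the combined treatment and untreated cells MYBL2, which encodes B-MYB, fell (-0.82 ± 0.19, edgeR adjusted p = 0.0173), as did TFDP1, the partner of E2F factors (-0.51 ± 0.10, edgeR adjusted p = 0.01). Without the correction these were the 2 of 15 called lower (6.73% of all genes). Only E2F5 was called higher (0.38 ± 0.11, edgeR adjusted p = 0.045), where 7.12% of all genes were. With the correction 7 of the 15 were called lower (12.8% of all genes) and 0 higher, so the call of E2F5 was lost. Of 8 tested brakes on mitotic entry, PKMYT1, the kinase that holds CDK1 inactive, fell between the combined treatment and untreated cells (-1.06 ± 0.20, edgeR adjusted p = 0.0062). GADD45B, a stress-response gene, rose (1.31 ± 0.28, edgeR adjusted p = 0.013). Without the correction these were the 1 lower and 1 higher of the 8 called (6.73% and 7.12% of all genes). With the correction 3 of the 8 were called lower (12.8% of all genes) and 2 higher (8.31% of all genes).

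The G1/S genes, which start DNA replication, had larger median changes. With interferon all 18 lay below 0 with a median of -0.48. Of these 4 were called lower (0.5% of all genes), led by RRM2, a subunit of ribonucleotide reductase (-0.59 ± 0.11, edgeR adjusted p = 0.0175). With the GC and length correction 15 were called lower (3.71% of all genes). With doxycycline the median of the G1/S genes was -0.27 with 16 below 0, where the members' median was 0.12. Without the correction edgeR called none of them (0.815% of all genes). DESeq2 called 2 of the 18 (1.99% of all genes), and 7 had an unadjusted p under 0.05 (13.6% of all genes). With the GC and length correction edgeR called 1 lower (1.92% of all genes). With the combined treatment 17 of 18 were called lower than in untreated cells (6.73% of all genes), with a median of -0.85. E2F2, an activator of G1/S transcription, went from 75.7 and 78.5 CPM in untreated cells to 30.2 and 37.9 CPM (-1.18 ± 0.14, edgeR adjusted p = 0.000229). The difference between the G1/S genes and the members was not tested.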

How the data were processed

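Per the labels' protocols, trizol was used to extract RNA and the library kit was one for stranded total RNA. The authors deposited whole-number read counts for 34917 transcript rows under 22257 symbols, without normalization. The submitters' processing notes name CASAVA 1.8.2, edgeR and the genome build hg19. What each was used for, the aligner, and how reads were counted, strand included, is not given in the sources used here. No row lacked a gene name. The transcript row with the highest total stood for each symbol, since summing the rows could count the same reads again. Of the members 17 had several rows, and for 41 of the 44 the row used is the one marked in the deposited table.

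The test was that of edgeR 4.0.16 under R 4.3.3 (quasi-likelihood F test, trimmed mean of M values with factors from 0.977 to 1.026, default low-count filter, all 8 libraries in 1 fit with 1 mean per group and 4 residual degrees of freedom; common biological coefficient of variation 0.097). P-values were adjusted over all 14601 genes tested, and standard errors came from the fold change and the F statistic. Replicates differed by more than sampling noise (chi-square per degree of freedom 4.1 to 8.57). Alternatives were relative log expression size factors, DESeq2 1.42.0, no filter, a stricter filter, only the groups compared, a replicate block, a loess correction (span 0.3) for GC content and length from GENCODE transcripts (98.3% of tested genes), summed rows, a minimum fold of 1.2 and leaving out each library, where the library left alone in its group is taken to vary like the rest. A crossed block, with replicate numbers swapped in the groups given doxycycline, and the marked rows were added after seeing the data. The scripts were tested on simulated data.

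Members and lists were chosen with earlier results of these data known. Members given with every library were the 3 with the smallest p in each comparison and always CCNB1, CDK1, PLK1, TOP2A, MKI67 and FOXM1, 16 in all; of other lists the 2 genes with the smallest p could be named. AURKB and INCENP, whose calls changed with the setting, E2F5, and the markers named were chosen after their values were seen. Promoters came from RefSeq (GRCh38.p14).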

Additional observations from a re-analysis of the deposited data

How the results depend on the processing

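The member medians kept their sign under every alternative fitted to both interferon comparisons, to both doxycycline comparisons and to the combined treatment against untreated cells; that of the interaction, 0.01, changed sign in 4 of the 8 fits that left out 1 library. For interferon alone the count of called members went from 0 to 1 with DESeq2, 17 with the GC and length correction and 12 with the crossed block (7.65% of all genes); for interferon after doxycycline from 0 to 1 with no filter, 20 with the correction and 15 with the crossed block (12.8% of all genes). For doxycycline the crossed block called 1 (CDC25C; 8.57% of all genes), and for doxycycline in interferon-treated cells 1 (TPX2; 10.3% of all genes), both below the share of all genes. For the combined treatment against untreated cells it was 17 with the correction, 13 with the crossed block (32.4% of all genes) and 0 with a minimum fold of 1.2. Leaving out 1 library gave 0 to 1, 0 to 1 and 0 to 4 calls for interferon alone, interferon after doxycycline and the combined treatment against untreated cells. The cause of these differences was not tested.

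The replicate block gave 0 called members in all but the combined treatment against untreated cells, where it gave 2, as without it; with the block and the correction together the counts were 23 for interferon alone (7.36% of all genes), 25 for interferon after doxycycline (11.3%), 1 for doxycycline alone (5.18%) and 22 for the combined treatment (22.8%). Same-numbered libraries deviated together in untreated and interferon groups (correlation 0.337) and in the groups with doxycycline (0.451). Between groups without and with doxycycline they deviated in opposite directions (-0.353 to -0.116), so the numbers were not taken to pair the libraries. Numbers crossed between these groups would give that pattern, which is why the crossed block was added. The trend with GC content had the same pattern. Replicate 1 stood above replicate 2 in untreated (0.58 and 0.12) and interferon libraries (0.31 and 0.03). It stood below with doxycycline (-0.48 and 0.35) and with both (-0.64 and 0.05). Whether numbers are crossed or this trend gave the correlations was not tested. The crossed block was built from the same data, so its calls are not a separate check.

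Of 47 pairs of a named member and a comparison, 32 combinations with a setting changed sign, and none of these changes was called. CCNB1 with doxycycline (0.00) went to -0.0026 (relative log expression), -0.0034 (DESeq2), -0.0069 (stricter filter), -0.0109 (only the groups compared), -0.0074 (summed rows), -0.0738 (correction), -0.0725 (block and correction) and -0.0743 to 0.0826 with 1 library left out. MKI67 between the combined treatment and interferon went to 0.0062, 0.0081, 0.0015, 0.0016 and 0.0091 in the first 5 of these settings, and to -0.0868 to 0.0767 with 1 library left out. With the correction, without and with the block, CCNB1 went to -0.0198 and -0.0193 against doxycycline and to -0.0935 and -0.0918 against untreated cells, and TOP2A to -0.0994 and -0.0985 against untreated cells. With 1 library left out the ranges were -0.0246 to 0.1379 and -0.002 to 0.1236 for CCNB1 in those comparisons, -0.0256 to 0.1858 for TOP2A, -0.1541 to 0.0525 for CDK1 against untreated cells, -0.1868 to 0.0047 for FOXM1 with doxycycline and -0.014 to 0.4406 for the interaction of HMMR.

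Counting error bears most on SPC24, the member with the fewest reads, at 64 to 186 per library.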
